A study of Mus musculus with 8 samples.

Results

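Gene expression of 3 mouse brain regions was compared with that of embryonic fibroblasts, in 5 of the 8 libraries of a study that sequenced RNA from various mouse tissues and cell types. The brain side held cerebellum, cortex and hippocampus, 1 library each, all of strain C57. The fibroblast side held 1 library of ICR MEF and 1 of OG2 MEF, mouse embryonic fibroblasts (MEF) of the strains ICR and OG2 made from embryos of day 13.5. OG2 is in common use the name of a mouse line with a green fluorescent protein transgene driven by Pou5f1 sequences, which the labels do not state. The labels name no treatment, and they give neither the age and sex of the brain donors nor the sex, pooling and passage of the fibroblasts. The libraries of glia, of neuron and of cells labelled R1 ESCs were left out of the comparison. Strain and source differ together between the sides and cannot be told apart. Each group had 1 library, and regions and strains are not replicates of a condition, so no test was possible and no p-value is given.

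Fibroblasts are the connective tissue cells that secrete collagen and other parts of the extracellular matrix, crosslink it, and pull on it through actin bundles anchored at focal adhesions. Cells from mid-gestation embryos divide and keep the regional HOX code of the body part they came from. Brain tissue is a mixture of neurons, astrocytes, oligodendrocytes, microglia and vessels, in which fibroblasts are found mainly in the meninges and around vessels and most neurons no longer divide. In such bulk samples, fewer cells of a type and less RNA per cell cannot be told apart.

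A gene was called lower in brain when both MEF libraries had at least 10 TPM (a transcript level corrected for transcript length and scaled to the same sum in every library) and the lowest MEF library was at least 4-fold above the highest region, with 1 TPM added to each. The higher direction mirrored this rule. By this rule 716 genes were lower and 1824 were higher in brain. That is 4.55% and 11.6% of the 15725 genes whose mean over the 5 libraries reached 1 TPM. By the plain rule, in which all regions merely lie below or above both MEF libraries, 3467 genes (22.0%) were lower and 8797 (55.9%) higher, and the remaining 3461 overlapped. The median gene lay 0.80 log2 units higher in brain than in the fibroblasts, and the values of gene groups below are set against that median. Counts of genes in the groups below are likewise to be read against the shares of all genes. These are 4.55% lower and 11.6% higher by the 4-fold rule, and 22.0% below and 55.9% above both MEF libraries. Lower genes made up 28.2% of the calls, and 45.6% when the libraries were scaled to a common median. By the plain rule their share was 28.3%, and 39.8% for counts without a length term and 45.4% at the common median. Genes close to the limit moved with these scalings: of those named below as less than 4-fold apart, Col5a3, P4ha1, Anxa6, Actg1, Calr and Hspa5 were called lower without a length term and at the common median, Sparc and Cnn3 there and with TMM factors, Itgav at the common median and Cenpf without a length term. The plot of mean levels shows the 716 lower genes below the diagonal, many of them at high fibroblast levels.

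**Figure D1:**
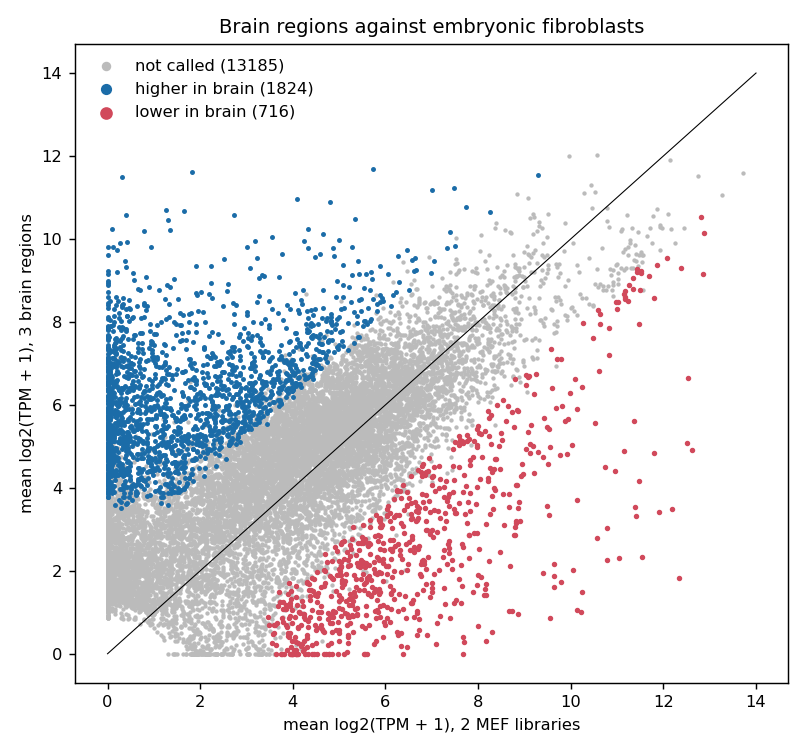
Mean log2(TPM + 1) of the 2 MEF libraries (horizontal) and of the 3 brain regions (vertical) for the 15725 genes whose mean reached 1 TPM, 1 point per gene. Red points are the 716 genes lower in brain, blue points the 1824 higher ones and grey points the 13185 genes not called, and the line marks equal levels.

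Total expected counts ran from 3686772 in hippocampus to 5572116 in cerebellum, with 4805982 in ICR MEF and 5404041 in OG2 MEF. At these depths, 3 counts on a transcript of 2000 bases were worth 0.461 to 0.943 TPM, the upper limit that a count of 0 allows there. Markers fitted the region labels. Pcp2, a Purkinje cell gene, had 1507 TPM in cerebellum and at most 2.61 TPM in the other 4 libraries, Nrgn and Camk2a were high in cortex and hippocampus, and C1ql2, a dentate gyrus gene, had 61.3 TPM in hippocampus and 5.01 in cortex. Of 10 fibroblast markers 7 were called lower in brain, while Thy1 and Dcn overlapped and Pdgfra was below both MEF libraries by less than 4-fold. Ribosomal protein genes took 4.57% to 5.61% of all TPM in the regions and 19.9% and 20.8% in the fibroblasts, and since TPM sum to the same total, this lowers the TPM of all other fibroblast genes. The counts of calls with these genes left out are in the closing section.

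The lower genes were few in number but carried much of the fibroblast RNA. Together they made up 26.3% of TPM in ICR MEF and 26.9% in OG2 MEF, and 2.15% to 2.38% in the regions. The 1824 higher genes were the mirror image, with 26.4% to 27.1% of TPM in the regions and 1.32% and 1.19% in the fibroblasts. Both shares follow from the rule that chose the genes and are given as a description. Of the 716, 689 were protein coding, 30 had 0 counts in every region, 89 stayed below 1 TPM in every region, and 170 had 10 TPM or more in every region. The gap was at least 16-fold for 179 of the lower genes (25%) and for 718 of the higher ones (39.4%).

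Values below are TPM, in the order cerebellum, cortex, hippocampus for the regions and ICR, OG2 for the fibroblasts. A fold is the ratio of TPM between the nearest libraries of the 2 sides, without the added 1, with its exact 95% interval, which covers counting error only. H19, an imprinted RNA abundant in fetal tissue and expressed from the maternal chromosome, had the widest gap. It stood at 2.29, 4.06 and 1.73 TPM in the regions and 4622 and 5859 TPM in the fibroblasts, 1138-fold lower in brain (689.7 to 2033). H19 lies on chromosome 7 (142575529 to 142578143, GRCm38). Col1a1, one of the chains of type I collagen on chromosome 11 (94936224 to 94953042), had 4.99, 5.19 and 2.52 TPM in the regions and 3058 and 2853 TPM in the fibroblasts, 549.8-fold lower in brain (417 to 740.3). Its partner chain Col1a2 (chromosome 6, 4504814 to 4541544) had 12.8, 11.7 and 4.63 and 2865 and 2571 TPM, 202-fold lower in brain (171 to 239). In all 3 genes every region was far below both fibroblast libraries, and hippocampus had the lowest value. For H19 that order rests on 11, 15 and 5 counts in the regions, and differences between regions were not tested.

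Lox, the enzyme that crosslinks collagen and elastin, had 1.75, 1.35 and 0.37 TPM in the regions and 1232 and 1034 TPM in the fibroblasts, 591-fold lower in brain (364 to 1036). Thbs1, the secreted glycoprotein thrombospondin 1 (chromosome 2, 118111876 to 118127133), had 3.52, 4.08 and 3.89 and 1726 and 1773 TPM, 423-fold lower in brain (323 to 565). Acta2, smooth muscle actin and a marker of contractile fibroblasts (chromosome 19, 34241090 to 34255590), had 8.02, 13.5 and 9.84 and 4302 and 5067 TPM, 318-fold lower in brain (241 to 428). None of the regions came near the fibroblast level for these genes, and no region was the highest in all of them. Tagln, the actin-binding protein transgelin, had 9.42, 11.1 and 11.2 and 2399 and 3028 TPM, 214-fold lower in brain (145 to 331). S100a4, a calcium-binding protein long used as a fibroblast marker, had 7.63, 13.0 and 9.22 and 4366 and 3356 TPM, 258-fold lower in brain (131 to 597). Timp1, a secreted inhibitor of matrix proteases, had 0.63, 2.62 and 0 and 771 and 718 TPM, 274-fold lower in brain (107 to 1006), and no count in hippocampus.

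The other leading genes were Actg2, an enteric smooth muscle actin (0.38, 0.40 and 0 against 301 and 270.4 TPM), Hmga2, a chromatin protein of embryonic cells (0.47, 0.74 and 0.18 against 303 and 326 TPM), Lgals1, the sugar-binding protein galectin 1 (26.5, 33.1 and 27.5 against 5768 and 6916 TPM), and Fbln2, the matrix protein fibulin 2 (3.54, 6.33 and 8.96 against 1601 and 1444 TPM). Actg2 rests on very few counts in the regions, and its 676-fold lower in brain (123 to 27063) has the widest interval of the group. Hmga1b and Eno1b also ranked here, at 2.32, 1.48 and 0 against 1205 and 1168 and 3.29, 0.90 and 1.66 against 1167 and 1247 TPM. They are near-identical copies of Hmga1 and Eno1 with fractional counts, so how the reads were divided between copies can set their values and both are uncertain. Hmga1 itself had 114, 90.2 and 67.7 against 423 and 408 TPM and was not called on deposited TPM, but was called lower under each of the 4 other scalings of the libraries that were tried.

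Ranked by level instead, the most abundant lower genes in the fibroblasts were Ftl1, the light chain of the iron store ferritin, with 561, 601 and 534 TPM in the regions and 6187 and 8852 TPM in the fibroblasts, 10.3-fold lower in brain (9.68 to 10.95). Ftl1 has processed copies and fractional counts, which makes its split uncertain. Tpt1, a growth-related protein found in most cells, followed with 1381, 1459 and 1629 and 6601 and 7741 TPM, only 4.05-fold lower in brain (3.85 to 4.26). Vim, the intermediate filament of mesenchymal cells and of glia, had 280.1, 58.8 and 58.2 and 5814 and 6037 TPM, 20.8-fold lower in brain (19.6 to 22.0). Cerebellum was the highest region for Vim, and the other two stood close together. S100a6 had 38.7, 34.8 and 25.8 and 5047 and 6644 TPM and S100a11 39.2, 21.5 and 24.9 and 3125 and 4021 TPM, both calcium-binding proteins of the S100 family. The abundant genes thus included some, such as Tpt1 and Ftl1, that the regions also express at high levels.

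**Figure D2:**
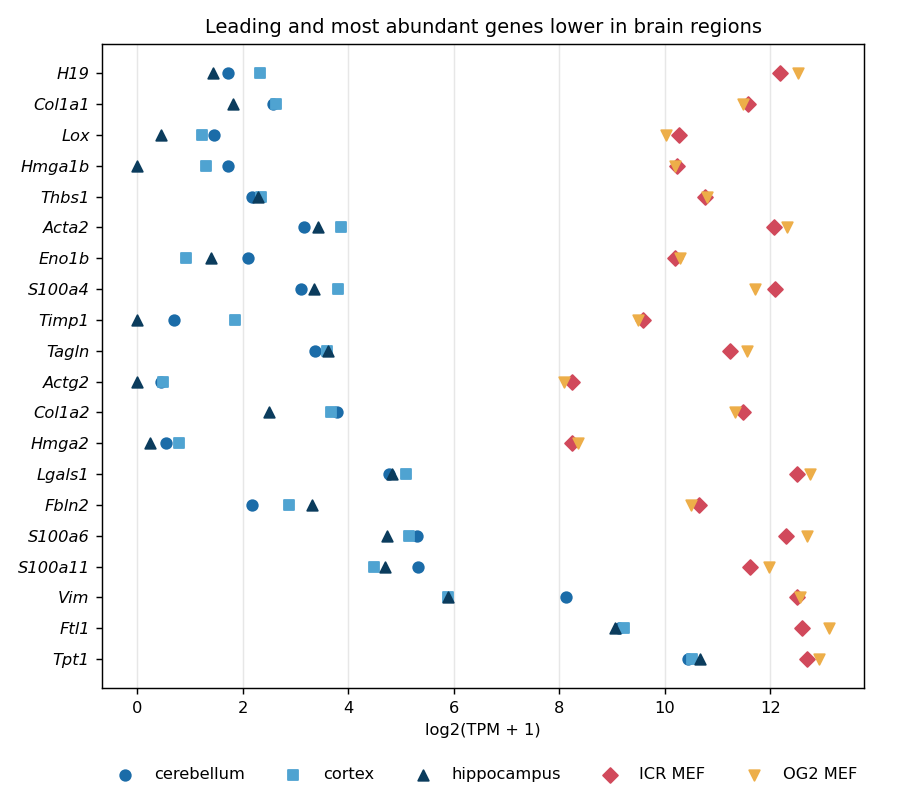
The 15 leading and the 10 most abundant genes lower in brain (20 genes, since 5 are in both), with log2(TPM + 1) on the horizontal axis and 1 symbol per library. The blue symbols of the regions lie left of both MEF symbols in each row; H19 has the widest gap and Tpt1 the narrowest.

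Most matrix genes measured were lower. Of 8 fibril-forming collagens 7 were lower (87.5%, against 4.55% of all genes) and none was higher, and their median difference was -6.56 log2 units against 0.80 for all genes. Col3a1, the type III chain of elastic tissues, had 2.27, 6.07 and 1.90 TPM in the regions and 1206 and 920.5 TPM in the fibroblasts, 152-fold lower in brain (112 to 211). Col5a2, which joins type I fibrils, had 2.13, 2.71 and 6.81 and 942 and 663 TPM. The exception was Col5a3, below both MEF libraries at 4.34, 1.84 and 1.27 against 21.6 and 14.3 TPM. Summed, the 8 genes reached 34.4 to 42.8 TPM in the regions and 8723 and 7584 TPM in the fibroblasts.

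Of 13 network, beaded and fibril-associated collagens, 8 were lower. Col6a3, a chain of the beaded type VI collagen around cells, had 1.54, 1.98 and 1.90 and 396 and 139 TPM, 70.3-fold lower in brain (46.8 to 111), and the 2 MEF libraries differed from each other more than for most genes. Col8a1 had 0.76, 2.57 and 0.89 and 202 and 120.1 TPM. Col12a1 had 6.22, 11.2 and 5.54 and 568 and 342 TPM. The members that were not called included Col18a1, the precursor of endostatin, which had 54.5, 3.39 and 1.55 TPM in the regions and 39.3 and 22.2 TPM in the fibroblasts. Its cerebellum value exceeded both MEF libraries while cortex and hippocampus were under 4 TPM.

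The enzymes that mature collagen went with it in part, 12 of 19 being lower. Loxl2 and Loxl1, relatives of Lox, had 0.81, 0.79 and 0.25 against 254 and 251 TPM and 1.97, 2.21 and 2.39 against 322 and 256 TPM. Serpinh1, the chaperone of procollagen in the endoplasmic reticulum, had 29.1, 21.1 and 16.3 TPM in the regions and 1755 and 1662 TPM in the fibroblasts, 57.2-fold lower in brain (48.6 to 67.8). P4ha1, which hydroxylates prolines, was less than 4-fold apart at 26.2, 45.7 and 45.3 against 162 and 151 TPM. Bmp1, the protease that trims procollagen and also activates growth factors, overlapped, with 144, 31.8 and 32.7 TPM in the regions and 102 and 79.3 TPM in the fibroblasts, and so did the prolyl hydroxylase P3h3 (103, 33.7 and 51.7 against 84.6 and 66.2 TPM). Cerebellum was the highest of the 5 libraries for both on deposited TPM. P3h3 lay below both MEF libraries without a length term and at the common median.

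Among matrix glycoproteins and proteoglycans 15 of 20 were lower. Bgn, the small proteoglycan biglycan, had 10.9, 20.6 and 21.4 and 3129 and 2567 TPM, 120.2-fold lower in brain (83.1 to 181). Fn1, fibronectin, had 26.2, 23.9 and 37.5 and 2541 and 2036 TPM, 54.3-fold lower in brain (48.2 to 61.4). Fbln5, which organises elastic fibres, had 3.53, 2.47 and 0.67 and 272 and 296 TPM. Sparc, a collagen-binding protein that astrocytes and endothelium also make, was not called, with 883, 312 and 300.2 TPM in the regions and 3203 and 2832 TPM in the fibroblasts. Dcn, decorin, overlapped at 22.2, 45.6 and 61.4 against 82.6 and 49.5 TPM, since hippocampus exceeded OG2 MEF. It lay below both MEF libraries when read as counts without a length term or at a common median. Bgn and Dcn are close relatives, and Bgn kept its call under each scaling while Dcn was not called under any.

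All 9 matricellular proteins, secreted proteins that tune cell contact with the matrix, were lower, with a median difference of -5.48. Postn, periostin, had 0.17, 3.92 and 2.25 and 358 and 215 TPM. Tnc, tenascin C, had 13.9, 4.70 and 3.50 and 454 and 424 TPM, and cerebellum was its highest region. Thbs2 had 3.98, 3.50 and 2.85 and 202 and 191 TPM. Among 15 matrix proteases and inhibitors 8 were lower (53.3%, against 4.55% of all genes) and 1 was higher (6.67%, against 11.6%). Mmp2, which degrades basement membrane collagen, had 1.16, 1.52 and 1.76 and 212 and 158 TPM. The 4 Timp genes differed on deposited TPM. Timp1 was lower, Timp2 (35.7, 284 and 171 against 824 and 821 TPM) and Timp3 (64.7, 77.4 and 56.3 against 282 and 232 TPM) were below both MEF libraries by less than 4-fold, and Timp4 was higher, with 267, 50.7 and 49.5 TPM in the regions and no count in either MEF library, at least 57.1-fold higher in brain. With the libraries scaled to a common median, Timp2 and Timp3 were called lower as well.

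**Figure D3:**
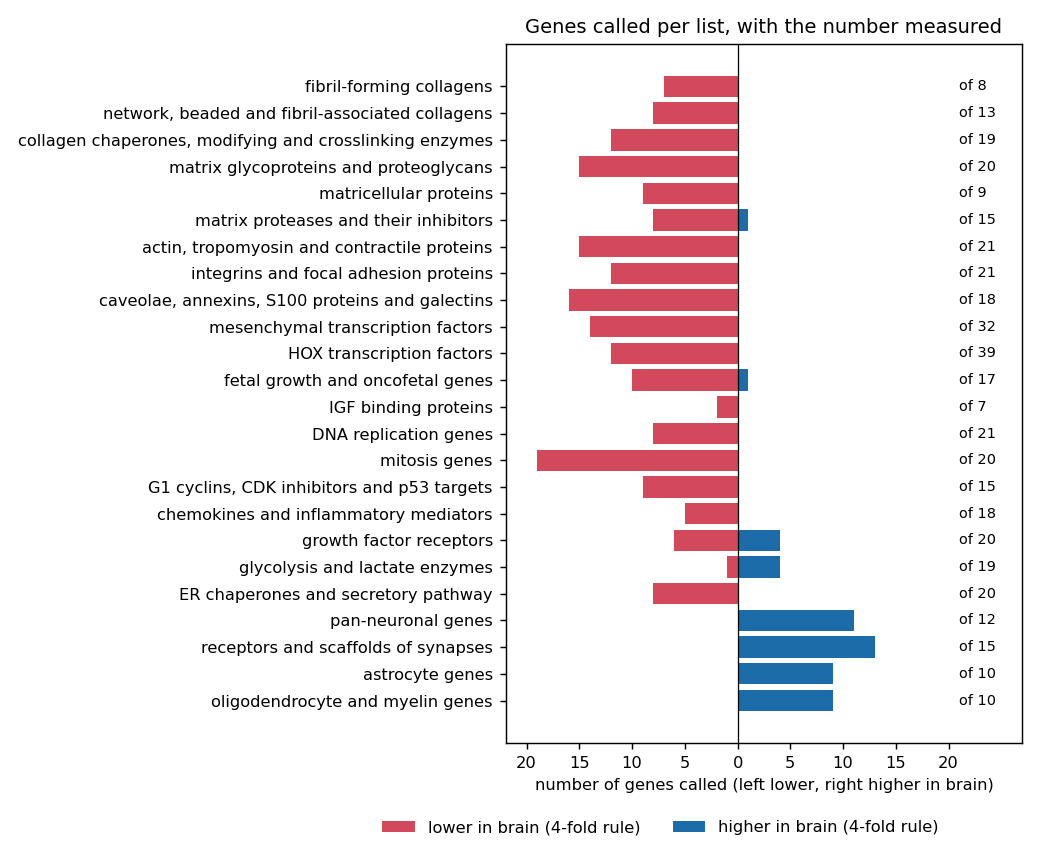
Number of genes called lower (red, left) and higher (blue, right) in brain by the 4-fold rule in 24 gene lists, with the number of measured genes at the right. Of all 15725 genes, 4.55% were lower and 11.6% higher. Matrix, contractile and cell cycle lists extend to the left and the neuronal, synaptic and glial lists to the right; growth factor receptors and glycolysis have bars on both sides.

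The contractile apparatus followed, with 15 of 21 actin, tropomyosin and myosin genes lower, none higher and all 21 below both MEF libraries. Cnn1, the smooth muscle calponin, had 0, 0.40 and 0.86 and 113 and 123 TPM, 132-fold lower in brain (44.7 to 638). Cnn2, its relative in other cells, had 7.82, 10.8 and 8.91 and 724 and 748 TPM, 66.8-fold lower in brain (48.8 to 94.1). The general actins were closer. Actb had 807, 1148 and 1356 TPM in the regions and 3517 and 2880.0 TPM in the fibroblasts, and Actg1 had 822, 1536 and 1446 and 5031 and 6104 TPM. Myl9, a regulatory light chain of smooth muscle and non-muscle myosin, had 26.1, 28.2 and 25.96 and 888 and 861 TPM, 30.6-fold lower in brain (23.8 to 39.997). The 6 members that were not called had at least 91.4 TPM in every region (the lowest being Cnn3 in cortex).

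Serum response factor, which drives many contractile genes, binds the CArG box, an element made of CC, 6 bases that are A or T, and GG. In the RefSeq promoter windows (250 bases before to 50 after a start site, GRCm38.p6), the element was in 4 of the 22 windows of this list (18.2%), those of Myl9, Cnn2, Myl6 and Actg1, and in 1.63% of all 32851 windows, searched on both strands. Actg1 and Myl6 were not called on deposited TPM. The bases upstream of the start are shown for the 2 lower genes that have it, with the element in capitals, as an example of the letters searched. Cnn2 is on the plus strand at chr10:79988350-79988583 with the element 56 bases before the start, and Myl9 on the plus strand at chr2:156775214-156775419 with the element 161 bases before it.
Cnn2: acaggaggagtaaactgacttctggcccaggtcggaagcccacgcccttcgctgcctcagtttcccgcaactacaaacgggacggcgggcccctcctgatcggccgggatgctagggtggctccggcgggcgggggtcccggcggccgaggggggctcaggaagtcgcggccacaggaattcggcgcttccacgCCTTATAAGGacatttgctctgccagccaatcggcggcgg
Myl9: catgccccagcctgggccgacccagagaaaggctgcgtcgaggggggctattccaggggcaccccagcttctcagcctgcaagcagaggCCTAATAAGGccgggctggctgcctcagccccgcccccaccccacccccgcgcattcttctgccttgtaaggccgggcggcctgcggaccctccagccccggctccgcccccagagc

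Of 21 integrins and focal adhesion proteins, which anchor actin to the matrix, 12 were lower. Itga5, the fibronectin receptor chain, had 1.48, 3.94 and 1.20 and 146 and 159 TPM, 37.0-fold lower in brain (26.8 to 52.5). Flnc, a filamin of muscle, had 0.86, 1.03 and 0.70 and 89.9 and 106 TPM. Palld, palladin of actin bundles, had 5.70, 3.47 and 3.26 and 146 and 154 TPM. Itgav, a chain of vitronectin receptors, was under the limit at 22.8, 41.9 and 32.1 against 136 and 118 TPM. Of 18 genes of caveolae, annexins, S100 proteins and galectins, 16 were lower. Anxa1, the annexin known for damping inflammation, had 0.98, 5.08 and 3.15 and 789 and 804 TPM, 155-fold lower in brain (88.7 to 301). The 2 exceptions were Anxa6 (132, 107 and 109 against 421 and 483 TPM) and Cav2 (14.4, 37.9 and 38.2 against 35.9 and 21.5 TPM), the latter overlapping while its partner Cav1 was lower at 17.1, 20.7 and 20.2 against 713 and 352 TPM.

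Transcription factors of mesenchyme were split. Of 32 measured, 14 were lower, none was higher, and 27 lay below both MEF libraries. Twist2, a repressor that keeps mesenchyme undifferentiated, had 0, 2.64 and 0.68 and 83.2 and 88.9 TPM. Prrx1, a factor of limb and face mesenchyme, had 9.27, 6.27 and 4.26 and 224 and 221 TPM, 23.8-fold lower in brain (19.6 to 29.3). Snai1, a repressor of epithelial genes, had 0.29, 1.5 and 0.87 and 59.4 and 49.6 TPM. Zeb1 and Zeb2, repressors with the same reputation, went the other way, with 52.1, 58.0 and 50.9 against 30.2 and 22.6 TPM and 57.7, 66.8 and 136 against 23.3 and 19.3 TPM, above both MEF libraries by less than 4-fold, under each scaling tried. Yap1, the growth coactivator held in check by the Hippo pathway, had 17.4, 21.7 and 20.03 and 95.3 and 87.9 TPM and was called lower only under the other scalings.

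HOX genes, whose order in 4 clusters matches their order along the body, were nearly silent in the regions. Of 39 measured, 12 were lower by the 4-fold rule (30.8%, against 4.55% of all genes) and 35 were below both MEF libraries. All 30 with a mean of at least 1 TPM were below both, against 22.0% of all genes. All 39 had 0 counts in hippocampus, 37 in cortex and 30 in cerebellum. In the regions they summed to 2.74, 0.43 and 0 TPM, and in the fibroblasts to 387 and 398 TPM. The fibroblasts expressed all 4 clusters, with sums of 121 and 135 TPM for cluster A, 95.2 and 114 for B, 119 and 116 for C, and 51.9 and 33.2 for D. Clusters A and B summed higher in OG2 MEF and D in ICR MEF, while C was almost level between these single libraries.

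By log2 ratio with 1 TPM added, Hoxc6 had the largest gap of the HOX genes, with no count in any region and 46.9 and 43.5 TPM in the fibroblasts, at least 18.9-fold lower in brain. Hoxb9 had none and 30.02 and 36.8 TPM, at least 35.6-fold lower in brain, and Hoxa10 none and 29.0 and 26.4 TPM, at least 21.1-fold lower in brain. Hoxc8 had 0.25, 0.21 and 0 and 25.9 and 26.04 TPM, 104-fold lower in brain (18.6 to 4200.2). The 9 genes with a count in cerebellum had at most 0.73 TPM there (Hoxa5). Hoxb1, Hoxb13, Hoxc12 and Hoxd1 had no count in either MEF library. The number of the gene in its cluster, which runs from head to tail, reached 13 in the fibroblasts, with Hoxd13 at 21.8 and 11.5 TPM.

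**Figure D4:**
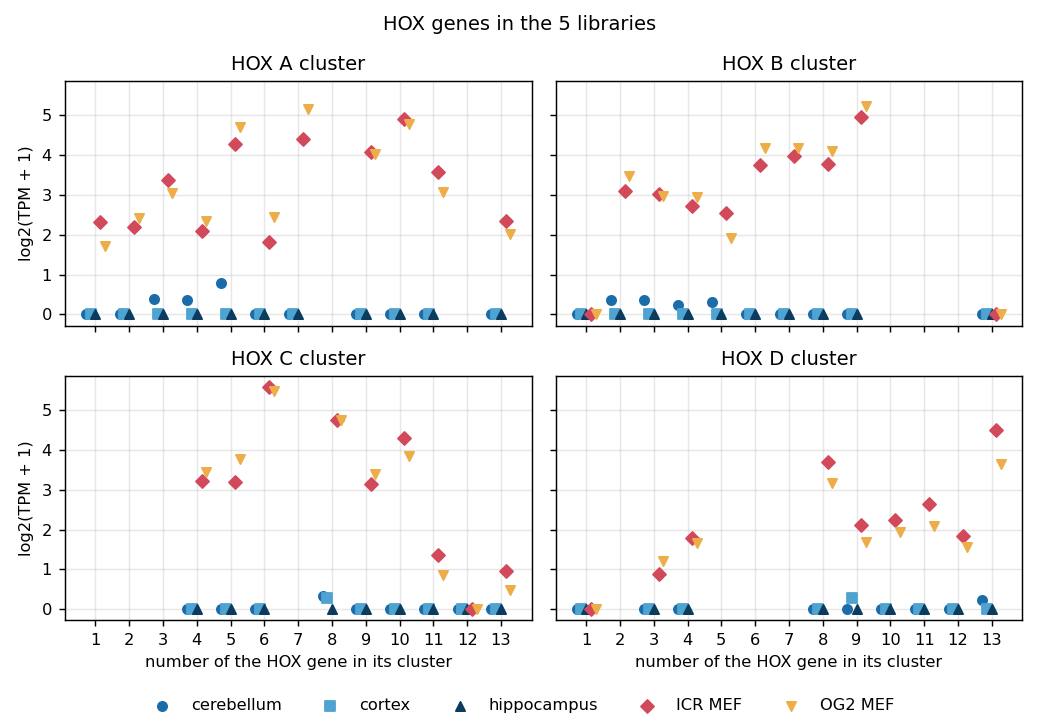
Level of each HOX gene, as log2(TPM + 1), by its number in the cluster (horizontal), with 1 panel per cluster and 1 symbol per library. Symbols are spread a little sideways to be seen. Region symbols lie at or near 0, while the MEF libraries reach 46.9 TPM (Hoxc6) and are at 0 for Hoxb1, Hoxb13, Hoxc12 and Hoxd1.

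Genes of fetal growth, many of them imprinted, were mostly lower, 10 of 17 (58.8%, against 4.55% of all genes), with 1 higher (5.88%, against 11.6%). Igf2, the fetal growth factor that lies next to H19 on chromosome 7 (142650766 to 142666816), had 56.6, 70.2 and 27.6 TPM in the regions and 2266 and 3089.8 TPM in the fibroblasts, 32.3-fold lower in brain (29.3 to 35.6). Its level in the regions was above that of H19 in each, and the meninges and choroid plexus are known sources of it in brain. Grb10, an adaptor that limits growth signals, had 28.1, 51.7 and 23.0 and 538 and 581 TPM. Igf2bp1, Igf2bp2 and Igf2bp3, RNA-binding proteins of embryonic and tumour cells, were all lower, with 0.17, 1.13 and 1.38 against 67.8 and 61.1 TPM for Igf2bp2 and no count of Igf2bp1 in any region. Meg3, an imprinted RNA that neurons express, was higher at 1429, 1930.4 and 1968 against 258 and 174 TPM, 5.53-fold higher in brain (5.22 to 5.87), a call that was lost when libraries were scaled to a common median. Peg3, also imprinted, had 248, 168 and 135 and 58.1 and 53.9 TPM.

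Mitosis genes were lower almost without exception, 19 of 20, and the 20th, Cenpf, was below both MEF libraries at 0.26, 0.23 and 0.46 against 10.3 and 4.49 TPM. Cdk1, the kinase that starts mitosis, had 1.37, 1.34 and 1.31 TPM in the regions and 166 and 188 TPM in the fibroblasts, 121-fold lower in brain (21.6 to 4798). Birc5, survivin, had 0, 1.68 and 1.17 and 112 and 99.0 TPM. Kif20a, a kinesin of cell division, had 0.41, 1.06 and 0 and 78.8 and 72.5 TPM. The list summed to 30.5 to 42.7 TPM in the regions and 1286 and 1166 TPM in the fibroblasts. Of 21 replication genes 8 were lower (38.1%, against 4.55% of all genes) and 19 below both MEF libraries (against 22.0% of all genes). Under the 4 other scalings 10 to 14 were lower. Rrm2, which makes DNA precursors, had 3.01, 2.41 and 2.62 and 111 and 104 TPM, 34.7-fold lower in brain (19.7 to 67.5). Pcna, the sliding clamp that repair also uses, had 91.3, 70.4 and 72.2 and 135 and 139.9 TPM. The lists' median differences were -4.36 for mitosis and -2.34 for replication, and the difference between the lists was not tested.

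Promoters of mitosis genes often carry the CHR (cell cycle genes homology region), TTTGAA or TTTCGAA, bound by a complex that silences them in resting cells. It was found, on either strand, in the windows of 13 of the 16 mitosis genes matched to RefSeq (81.2%) and in 18.5% of all windows. The pair TTTCCCGC or TTTGGCGC, forms of the site of E2F factors, was found in 7 of the 19 windows of replication genes (36.8%) and in 1.56% of all. CCAAT was in 15 of the 16 mitosis windows and in 37.4% of all. The CHR and E2F forms share their first letters (TTTG or TTTC), and CCAAT can lie inside a CArG box. A match is a description of letters, not a binding site, and binding was not measured here. The upstream bases of 4 lower genes are shown with the matches in capitals, as examples of where the letters lie: Cdk1 (minus strand, chr10:69352939-69353162) and Top2a (minus strand, chr11:99024190-99024439) for the CHR, and Mcm6 (minus strand, chr1:128359706-128359955) and Mcm5 (plus strand, chr8:75109259-75109508) for the E2F letters. Cdk1 has another CHR match 15 bases before its RefSeq start, downstream of the bases shown. Top2a, the topoisomerase that untangles chromosomes, had 1.34, 3.60 and 4.06 and 113 and 99.7 TPM, and the helicase subunits Mcm6 and Mcm5 had 4.47, 8.53 and 14.1 against 69.6 and 66.0 and 9.48, 5.91 and 3.88 against 42.3 and 45.6 TPM. Mcm5 lost its call when counts were thinned to the smallest total.
Cdk1: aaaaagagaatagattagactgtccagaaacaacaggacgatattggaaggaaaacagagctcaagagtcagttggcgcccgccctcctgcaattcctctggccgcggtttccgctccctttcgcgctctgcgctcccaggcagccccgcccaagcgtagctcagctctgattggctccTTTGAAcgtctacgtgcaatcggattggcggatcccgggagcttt
Top2a: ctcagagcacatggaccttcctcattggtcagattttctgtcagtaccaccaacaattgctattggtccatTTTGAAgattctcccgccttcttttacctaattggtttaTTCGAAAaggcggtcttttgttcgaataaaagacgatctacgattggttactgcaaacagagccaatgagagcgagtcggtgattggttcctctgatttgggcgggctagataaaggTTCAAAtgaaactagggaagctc
Mcm6: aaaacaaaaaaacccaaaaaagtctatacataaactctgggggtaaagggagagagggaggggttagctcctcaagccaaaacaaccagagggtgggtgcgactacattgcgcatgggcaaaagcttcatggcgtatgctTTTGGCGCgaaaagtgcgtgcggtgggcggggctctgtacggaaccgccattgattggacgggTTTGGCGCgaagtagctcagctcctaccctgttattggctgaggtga
Mcm5: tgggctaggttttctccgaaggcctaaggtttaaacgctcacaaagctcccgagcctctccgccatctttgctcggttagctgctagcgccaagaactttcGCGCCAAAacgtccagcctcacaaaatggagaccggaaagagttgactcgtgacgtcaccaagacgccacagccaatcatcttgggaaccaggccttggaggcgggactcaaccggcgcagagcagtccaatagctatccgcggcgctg

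Of 15 genes of the G1 phase, CDK inhibitors and p53 targets, 9 were lower (60%, against 4.55% of all genes). These included brakes of the cell cycle as well as its drivers. Cdkn2a, whose locus encodes p16 and p19Arf and is known to accumulate in cultured fibroblasts, had 0.57, 0.64 and 0 and 101 and 103 TPM, 159-fold lower in brain (28.2 to 6319.8). Its neighbour Cdkn2b, another CDK inhibitor, had 2.04, 0.71 and 0.52 and 111 and 92.0 TPM. Cdkn1a, p21, had 22.2, 14.6 and 4.63 and 481 and 456 TPM, 20.5-fold lower in brain (16.5 to 25.9). Cdk4, the kinase these inhibitors restrain, had 76.7, 70.8 and 80.6 and 611 and 563 TPM. Cdkn1b, p27, lay the other way, with 103, 33.4 and 42.1 TPM in the regions and 29.4 and 30.3 TPM in the fibroblasts, cerebellum being the highest, and the sides overlapped under the other scalings.

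Of 20 genes of the endoplasmic reticulum and secretory pathway 8 were lower (40%, against 4.55% of all genes). Below both MEF libraries were 19, against 22.0% of all genes, and 9 to 13 were lower under the other scalings. Kdelr3, a receptor that returns chaperones to the endoplasmic reticulum, had 2.01, 1.75 and 0.51 and 206 and 191 TPM, 95.1-fold lower in brain (43.5 to 259.9). P4hb, protein disulfide isomerase and a subunit of prolyl hydroxylase, had 104, 103 and 88.8 and 1117 and 1055 TPM, 10.2-fold lower in brain (9.42 to 11.03). Calr and Hspa5, chaperones of all secreting cells, were within 4-fold at 392, 497 and 431 against 1731 and 1585 TPM and 249, 243 and 221 against 914 and 762 TPM. Of the ribosomal protein genes, 82 had a mean of at least 1 TPM, all 82 lay below both MEF libraries, under each scaling that kept them. Of these, 25 were called on deposited TPM, 47 with TMM factors, 53 without a length term and 63 at the common median. Many of them have processed copies that share reads, so single members are uncertain.

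Of 19 glycolysis genes 1 was lower and 4 were higher, against 4.55% and 11.6% of all genes, and 2 were lower without a length term and at the common median. Slc16a3, the transporter that exports lactate, was the lower one on deposited TPM, at 0.72, 5.81 and 0.90 against 66.8 and 50.4 TPM. Gapdh had 3989.9, 3918 and 3645 TPM in the regions and 3997 and 5182 TPM in the fibroblasts, almost level in 4 of the 5 libraries. Aldoc, the aldolase of astrocytes and Purkinje cells, was higher at 3259, 1037 and 1073 against 6.04 and 5.29 TPM. The median difference of the list was 0.25, below the 0.80 of all genes.

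Of 10831 genes that averaged 10 TPM or more, 94.2% to 99.3% were within 4-fold between any pair of regions, 66.9% to 69.3% between a region and a MEF library, and 99.6% between the MEF libraries. The lower genes were chosen for their distance from the fibroblasts, so only their spread between regions is given. Of the 608 lower genes that averaged 10 TPM or more, 89.5% were within 2-fold between cortex and hippocampus, 81.9% between cerebellum and cortex and 78.5% between cerebellum and hippocampus, against 98.2% between the MEF libraries. All these shares, and the spreads below, were taken on TPM + 1. A lower gene under 1 TPM in every region is then within 2-fold between regions by construction. Both MEF libraries had at least 10 TPM for each lower gene, so the MEF share is not on the same footing. Of the 627 lower genes with at least 1 TPM in a region, 251 were highest in cortex, 215 in cerebellum and 161 in hippocampus, and 217 (34.6%) spread at least 2-fold. Among those with at least 10 TPM in a region, Psrc1, a mitotic spindle protein, spread the most, at 0, 8.56 and 18.9 TPM in the regions and 114 and 92.2 TPM in the fibroblasts. Ccnd2, the cyclin D of neural progenitors, had 3.01, 44.6 and 47.9 and 318 and 311 TPM and was low in cerebellum. Dlk1, an imprinted Notch relative (0.27, 22.1 and 7.53 against 173 and 153 TPM), and Emp3, a membrane protein (5.67, 10.96 and 0 against 497 and 344 TPM), were highest in cortex. Sdc1, a heparan sulfate proteoglycan, was highest in cerebellum (10.8, 1.38 and 0.21 against 131 and 126 TPM).

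At the limit of the rule, Ctsl, a lysosomal protease, was just inside at 121, 93.5 and 91.8 TPM in the regions and 596 and 489 TPM in the fibroblasts, as was Myc, the growth-promoting factor, at 1.61, 7.74 and 7.30 and 40.4 and 34.02 TPM. Lbhd1 (4.75, 3.10 and 2.29 against 24.6 and 22.0 TPM) and Rnase4, a secreted ribonuclease (10.9, 23.3 and 26.8 against 125 and 109.8 TPM), were just outside. Both of the latter have fractional counts from overlapping or similar transcripts.

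The genes higher in brain were led by Snap25, a fusion protein of synaptic vesicles, at 3295, 2748 and 2634 against 0.56 and 0 TPM, and by Syp, the vesicle protein synaptophysin, at 985, 1291 and 1421 against 0 and 0.13 TPM. Mbp, a main protein of myelin, had 3545, 2543 and 3391 against 2.41 and 2.68 TPM. Of 12 pan-neuronal genes 11 were higher, of 15 synapse genes 13, of 10 astrocyte genes 9 (8 under each of the 4 other scalings, without Aldh1l1) and of 10 oligodendrocyte genes 9, and none of these genes was lower. Among all genes 11.6% were higher and 4.55% lower. The astrocyte exception on deposited TPM was Gja1, the gap junction protein connexin 43, nearly equal in all 5 libraries at 171, 161 and 182 against 161 and 164 TPM, and below both MEF libraries under the other scalings. The neuronal exception was Uchl1 at 260.2, 1233 and 1064 against 61.8 and 109 TPM.

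Paralogue pairs compare a broadly expressed gene with its neural relative inside each library, so a common scaling factor cancels apart from the added 1 TPM. In 32 of 33 pairs the ratio of neural to broad member was above both MEF libraries in all regions, and in 28 the gap was at least 4-fold. In 20 pairs the ratio changed sign, the broad member leading in the fibroblasts and the neural member in every region. The neural member was called higher in 28 pairs, while the broad member was called lower in 5 and lay below both MEF libraries in 15, on deposited TPM. Of all genes 11.6% were higher, 4.55% lower and 22.0% below both. The pairs were picked as a broad gene and its neural relative, so these counts in part restate that choice.

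In all 5 pairs with a lower broad member, the neural member was higher. Tubb6, a beta tubulin, had 8.66, 6.87 and 4 TPM in the regions and 419 and 472 TPM in the fibroblasts, and Tubb4a, the neural and myelin form, had 1002, 648 and 603 and 5.78 and 3.75 TPM. Ptbp1, a splicing repressor of non-neural cells, had 61.9, 43.5 and 46.5 and 314 and 288 TPM, and Ptbp2, its neural relative, had 89.1, 90.7 and 92.1 and 8.71 and 7.23 TPM. Tagln2 had 14.5, 19.8 and 41.3 and 706 and 741 TPM against 606, 357 and 317 and 4.37 and 2.89 TPM for Tagln3. Syngr2 had 9.57, 13.3 and 15.03 and 87.7 and 72.7 TPM against 317, 298 and 246 and 8.45 and 5.87 TPM for Syngr1, a vesicle protein. In the remaining pair, Vim and the neurofilament Nefl, Vim stayed ahead in cerebellum, where Nefl had 208 TPM. The exception among the 33 was Stx1a and Stx4a, syntaxins of membrane fusion, since Stx1a had 2.64, 210.4 and 88.6 TPM in the regions and 6.43 and 5.81 TPM in the fibroblasts and was thus lowest in cerebellum.

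**Figure D5:**
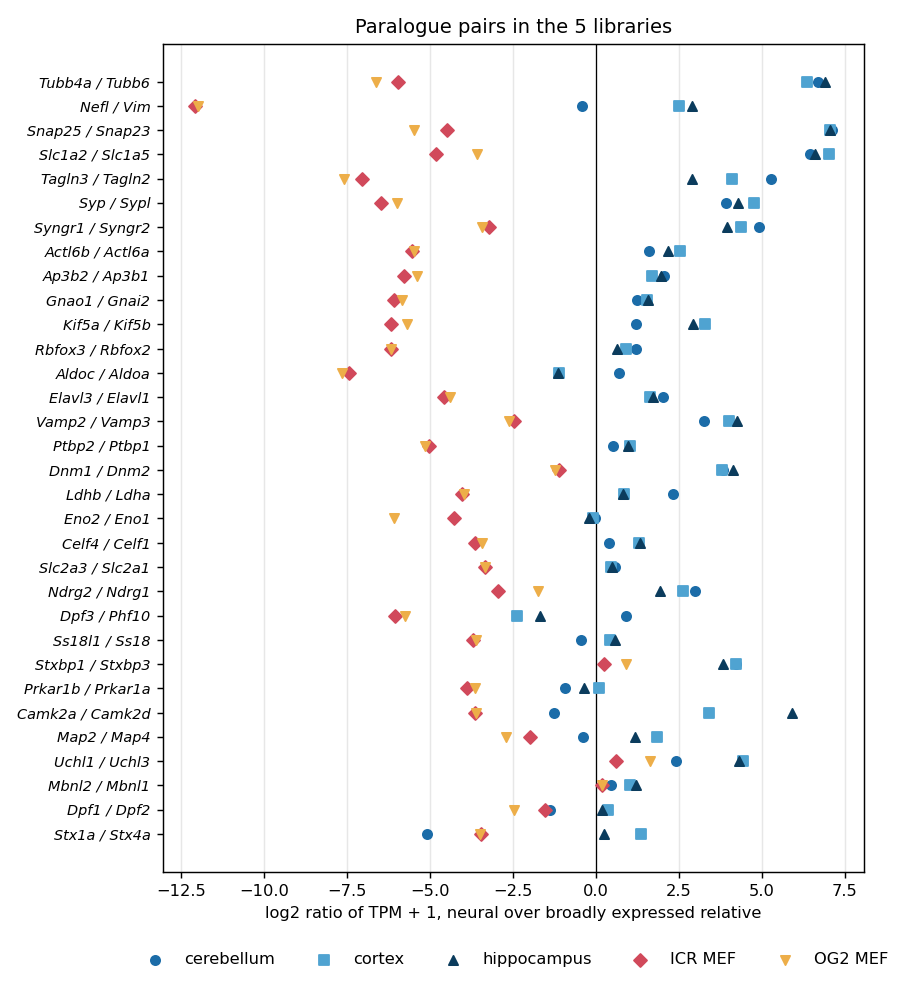
Log2 ratio of TPM + 1 of the neural over the broadly expressed member for 32 of the 33 paralogue pairs, sorted by the gap between regions and MEF libraries, with 1 symbol per library and a line at equal levels. Region symbols lie right of both MEF symbols in 31 pairs; in Stx1a / Stx4a the cerebellum lies left of them.

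Markers of other cell types were also read. Of 11 microglia genes 1 was higher (Ctss, 38.0, 106 and 90.2 against 5.77 and 4.17 TPM) and 8 were above both MEF libraries, against 11.6% and 55.9% of all genes. The call of Ctss was lost at the common median, and 7 were called when cerebellum was left out. Summed, the list stood at 169, 596 and 551 TPM in the regions and at 89.0 and 112 TPM in the fibroblasts. Of 9 endothelial genes 2 were higher, among them Cldn5 (27.8, 31.5 and 30.1 TPM and no count in the fibroblasts), and Pecam1 had no count in either MEF library. Of 10 genes of meningeal and perivascular fibroblasts 1 was lower and 2 were higher, with Ptgds at 1381, 2532 and 997 against 0.75 and 0 TPM and Slc6a20a at 12.3, 20.5 and 12.5 TPM against none. Of 6 erythroid genes 4, all globins, were higher and none had a count in the fibroblasts, with Hbb-bs at 780.1, 445 and 374 TPM in the regions. Of 8 choroid plexus genes 1 was lower, the water channel Aqp1 (0, 2.67 and 0.77 against 46.1 and 32.0 TPM), and 1 was higher. The higher one, Ttr, the main secreted product of that tissue, had 35.0, 1183 and 63.1 TPM and none in the fibroblasts, highest in cortex. Cartilage, skeletal muscle and epithelial lists (9 genes each) had 1, 0 and 0 lower members, and Myod1 and Epcam had no count in the fibroblasts. The higher share was 66.7% for the erythroid, 22.2% for the endothelial, 20% for the meningeal and 12.5% for the choroid plexus list, against 11.6% of all genes. The lower share was 10% for the meningeal and 12.5% for the choroid plexus list, against 4.55%. The higher share of the choroid plexus list is thus near that of all genes. The part of these cells in the genes above was not tested.

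Xist, the RNA of the inactive X chromosome, was among the lower genes at 0.14, 0.92 and 0.15 against 21.2 and 16.8 TPM. The Y-linked genes Ddx3y, Eif2s3y, Kdm5d and Uty had counts in all 5 libraries and lay above both MEF libraries in the regions by less than 4-fold, for example Eif2s3y at 109, 97.3 and 91.7 against 40.2 and 15.9 TPM. Sex-linked genes thus differed between the sides, and the sex of the donors, which the labels do not give, cannot be told apart from the tissue.

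When the library labelled R1 ESCs was placed on the fibroblast side, 171 of the 716 lower genes were left, and 1732 of the 1824 higher ones. In that library Pou5f1 had 20.2 TPM but Zfp42, Dppa5a and Esrrb, markers of the same stem cells, had no count and the keratin Krt14 had 142 TPM, so its markers go only partly with its label. None of the 12 HOX genes, the 9 matricellular genes or the 12 focal adhesion genes kept its call, and 2 of 7 fibril-forming collagens, 6 of 19 mitosis genes and 8 of 16 genes of the caveolae, annexin and S100 list did. Thbs1 had 2.37 TPM and Acta2 235 TPM in the library labelled R1 ESCs. That library held 2147004 expected counts, and ribosomal protein genes took 49.6% of its TPM, against 19.9% and 20.8% in the fibroblasts. This lowers the TPM of all its other genes, and its part in the lost calls was not tested. The neuronal, synaptic and glial lists moved by at most 1 gene.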

How the data were processed

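Total RNA taken up in Trizol was made into libraries with the Illumina TruSeq RNA kit, per the labels' protocols. The submitters' processing notes name Bowtie, RSEM and the build mm10, without tool versions. Annotation release and strand setting were not given in the sources used here, and without strand reads of overlapping antisense genes cannot be told apart. The deposited tables hold RSEM expected counts for 29713 genes, per the file headers, and 29202 of these matched a symbol. Beside them the authors gave TPM, which divides each count by the gene's effective length. Genes without a symbol took at most 0.151% of the counts in the 5 libraries.

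Called genes met the 4-fold rule on TPM, with 1 added and at least 10 TPM in every library of the higher side. Folds of single genes leave out the added 1 and carry 95% Clopper-Pearson intervals (exact). Shares of genes within a fold between libraries, and spreads between regions, were taken with the 1 added. Where a side had no count, 3 counts in each of its libraries stood in for it. TMM factors were computed on expected counts rounded to whole numbers. On simulated counts of 29713 genes for this comparison, 98 of 100 genes set 8-fold lower and 100 of 100 set 8-fold higher were called, none of those set 2-fold either way and 0 of 29513 left unchanged. All simulated libraries shared the same mean profile with counting noise only, and the changed genes were well expressed. The simulation had no spread between animals, strains or cultures, so it gives no rate of false calls for the real libraries. Named were the 15 lower and 10 higher genes with the largest log2 ratio, the 10 most abundant lower genes, the 6 lower genes with the largest spread between regions, the 2 on each side of the limit, per list up to 4 called genes and 3 others, both members of pairs, and all members of label checks and lists of other cell types. Predicted models, pseudogenes and ribosomal protein, histone, small RNA and mitochondrial genes were left out of the ranks, and other named genes were chosen after their values were seen. A few genes that meet the rule are not reported here. The members and the 39 lists were chosen with earlier results of these data known. Coordinates are from GENCODE M21 and promoters from RefSeq (GRCm38.p6), which matched 552 of 715 lower genes with a distinct symbol. Printed promoter bases stop before the earlier of the RefSeq and GENCODE gene starts. The versions were matplotlib 3.10.9, scipy 1.17.1, pandas 2.3.3 and numpy 2.4.6 under Python 3.11.15. TMM factors came from edgeR 4.0.16 (R 4.3.3), which ran no test here.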

Additional observations from a re-analysis of the deposited data

Results flagged for a closer look

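The 26 lower genes named for their gap, their level or their spread between regions were also read in the 3 libraries outside the comparison, and for 4 of them one of these libraries was above all 5 compared libraries. Timp1 had 1304 TPM in the library labelled R1 ESCs, against 771 and 718 TPM in the fibroblasts and at most 2.62 TPM in the regions. Vim had 10414 TPM in the glia library, against 5814 and 6037 TPM in the fibroblasts. Psrc1 had 129 TPM in glia against 114 and 92.2 TPM in the fibroblasts, and Ccnd2 had 935 TPM in glia against 318 and 311 TPM. Each of these 4 genes was lower in the regions than in both MEF libraries. These are values of 1 library each, with no replicate.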

How the results depend on the processing

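The 716 lower and 1824 higher genes became 388 and 1188 with an 8-fold limit. With the library labelled R1 ESCs on the fibroblast side they became 171 and 1732 (lower share of calls 8.99% against 28.2%), and 1200 and 8332 by the plain rule in place of 3467 and 8797. With libraries scaled to a common median, a choice made after seeing the data, they became 1122 and 1340 (lower share 45.6%), and 5435 and 6533 by the plain rule. Lower and higher counts were 862 and 1576 with TMM factors, 1011 and 1659 as scaled counts (CPM) without a length term (lower share by the plain rule 39.8% against 28.3%), 810 and 1667 without ribosomal protein genes, 713 and 1817 with counts thinned to the smallest total, 752 and 1933 with 0.1 TPM added, 538 and 1291 with 5 TPM added, and 802 and 2263 with a floor of 1 TPM. Leaving out 1 library gave 754 to 842 lower and 1919 to 2387 higher genes, and 3653 to 4074 and 9145 to 9469 by the plain rule. By these rules a library left out can only add calls and a library added can only remove them. These counts therefore do not measure stability. All 716 genes remained called under TMM factors and the common median, and 690 of them without a length term. TMM factors and the common median lower the regions relative to the fibroblasts, so lower genes could not lose their calls there. Of the 1824 higher genes, 1576 remained called under TMM factors, 1340 at the common median and 1494 without a length term. The median of all genes was 0.80 log2 units higher in brain on deposited TPM, 0.55 with TMM factors, 0.60 without ribosomal protein genes, 0.37 without a length term and 0.22 at the common median. Of 282 called or named genes followed through 15 settings, none reversed. For a called gene, most of these settings could not give a reversal. A changed constant, floor or limit, a library left out or a library added cannot swap the sides. The absence of reversals is therefore no measure of stability. Meg3, Ctss, Erbb4 and Slc6a20a lost their call at the common median, Aldh1l1 under all 4 scalings, Neurod6 under all but the one without ribosomal protein genes, Hoxb6, Hoxb7 and Esam without a length term, and Lum, Mcm5 and Ttk with thinned counts.

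No paired analysis was possible because each group had 1 library and the labels give no replicate numbers. With 1 library per group, the spread between animals or cultures is unknown, and intervals cover counting error only. At 3 counts on 2000 bases the limit is 0.625 to 0.943 TPM in the regions, and differences between them under it were not detectable at this depth. Reads shared between near-identical copies make Hmga1b, Eno1b, Ftl1 and single ribosomal protein genes uncertain.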

Other observations

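Of 20 growth factor receptors 6 were lower (30%, against 4.55% of all genes) and 4 higher (20%, against 11.6%). Ddr2, a receptor for fibrillar collagen, had 3.49, 5.17 and 3.55 TPM in the regions and 134 and 109 TPM in the fibroblasts, 21.01-fold lower in brain (16.8 to 26.6). Pdgfrb, the platelet-derived growth factor receptor of mesenchyme and pericytes, had 8.43, 10.01 and 10.5 and 142 and 106 TPM, while its relative Pdgfra, which oligodendrocyte precursors also carry, had 8.47, 33.96 and 27.8 and 40.5 and 51.4 TPM and was not called. Ntrk2, the receptor of brain-derived neurotrophic factor, was higher at 135, 257 and 205 against 0.41 and 0.50 TPM, 271-fold higher in brain (152 to 548), as were Ntrk3, Fgfr3 and Erbb4, the last with a call that was lost at a common median. Fgfr1 overlapped on deposited TPM at 119.8, 47.3 and 82.5 against 117 and 107 TPM and lay below both MEF libraries under the 4 other scalings.

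Of 18 chemokines and inflammatory mediators 5 were lower (27.8%, against 4.55% of all genes) and none higher. Cxcl12, which guides and retains stem cells and neurons, had 37.2, 39.9 and 42.1 TPM in the regions and 491 and 598 TPM in the fibroblasts, 11.6-fold lower in brain (10.02 to 13.6). Ccl7 and Ccl2, which attract monocytes, had 0.66, 0.69 and 0 against 128 and 48.8 TPM and 0, 1.35 and 0 against 90.6 and 41.1 TPM, and for both ICR MEF was more than 2-fold above OG2 MEF. Of 7 IGF binding proteins 2 were lower (28.6%, against 4.55% of all genes). They were Igfbp7 (30.3, 38.0 and 24.8 against 859.8 and 661 TPM) and Igfbp3 (12.8, 15.1 and 14.9 against 202 and 87.2 TPM). Igfbp4 overlapped at 12.8, 52.5 and 95.7 against 76.2 and 59.2 TPM, and was below both MEF libraries without a length term.

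Protein-coding genes of the 2 directions differed in size. The median gene spanned 16.7 kb among the 689 lower genes and 41.9 kb among the 1735 higher ones, against 25.05 kb among the 14316 with a mean of 1 TPM or more. Spans over 100 kb made up 11.5% of the lower, 29.1% of the higher and 15.4% of all these genes. Median effective transcript length was 2097, 3105 and 2425 bases in the same order. The ratio of observed to expected CpG in the promoter windows was 0.646 for lower and 0.648 for higher genes, against 0.726 for all genes of that mean level. The X chromosome had 17.6% of its genes called higher, against 11.6% of all genes, and was singled out after the values of all chromosomes were seen. These are descriptions of 1 library per group, with no test.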
